A study of Mus musculus with 12 samples.

Results

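The mRNAs of the AMPA and NMDA receptor subunits were followed in RNA recovered with the m6A readers YTHDF1, YTHDF2 and YTHDF3. AMPA and NMDA receptors are the glutamate-gated channels of excitatory synapses. AMPA receptors are tetramers of the subunits encoded by Gria1 to Gria4 and carry most of the fast current. NMDA receptors combine the obligatory subunit encoded by Grin1 with subunits encoded by the Grin2 and Grin3 genes, and their calcium entry is needed for several forms of plasticity. YTHDF proteins bind RNA that carries N6-methyladenosine (m6A), a mark placed mostly in coding sequence and 3′ UTRs, often near the stop codon. RNA immunoprecipitation (RIP) recovers the RNA bound to a protein with an antibody, and the RNA is then counted by sequencing.

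The members were the 9 genes Gria1, Gria2, Gria3, Gria4, Grin1, Grin2a, Grin2b, Grin2d and Grin3a, taken by symbol from a table of 55573 genes. The set was chosen with earlier results of these data known, and it does not hold every NMDA receptor subunit gene. All 9 were among the 16820 genes that had a mean normalized count of at least 10 and were tested. The cells were primary hippocampal neurons of neonate C57BL/6 mice kept 14 days in culture, untreated and with no genetic change. There were 3 libraries each of Input (total RNA of the lysate, no antibody) and of RIP with antibodies against endogenous YTHDF1, YTHDF2 and YTHDF3. A control-antibody RIP was not analysed here, and values give recovery relative to lysate RNA and include any RNA held by the beads. Per the study's methods, the 3 replicates were biological, and the pooled wells of each gave 1 lysate that was divided among the 3 RIPs and served as their common Input. Whether the wells of different replicates came from separate animals or culture preparations is not stated in the sources used here, so p-values measure the spread between these libraries.

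Total counts ranged from 6020072 to 38909592 per library, and the lowest count of any member was 95, for Grin2d. The summed neuron markers (Map2, Rbfox3, Tubb3, Syn1, Slc17a7) reached 2320 to 3205 CPM (counts scaled by TMM and by library size) in Input and 1575 to 6408 CPM in the RIP libraries, and each of the 5 was at 63.5 CPM or more in every library. The 4 astrocyte markers (Gfap, Aqp4, Aldh1l1, Slc1a3) were all detected, and their sum ranged from 249 to 2421 CPM in Input, from 251 to 1128 with YTHDF1, from 545 to 1239 with YTHDF2 and from 183 to 1435 with YTHDF3. Microglial and endothelial markers summed to at most 1.72 and 2.54 CPM. Mog was at or near 0 throughout, whereas Pdgfra, a marker of oligodendrocyte precursors, was at 0.533 CPM in Input replicate 1 and 0.893 CPM in YTHDF3 RIP replicate 1 and between 79.6 and 244 CPM in each of the other libraries. The libraries labelled replicate 1 of the YTHDF1 and YTHDF2 RIPs therefore did not share the Pdgfra level of Input replicate 1, a gene picked out after its values were seen.

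All members were long in summed exons, which can exceed the length of any 1 mRNA. Their exonic length, the summed exons of each gene in the count table, ran from 6043 bases for Gria1 to 24842 bases for Grin2b, each above the median of 4645 bases of the 13403 protein-coding genes tested. In the coding transcript chosen for each gene from GENCODE M21 (GRCm38), the 3′ UTR had 18865 bases in Grin2b, 9929 in Grin2a and 7268 in Gria2, against 897 in Grin2d and a median of 1013 over 13275 genes. These transcripts ran from 4276 bases in Grin1 to 24060 in Grin2b, with a median of 3114 over the same genes. For Grin1 and Gria3 they had 4276 and 5192 bases, against 9700 and 9859 exonic bases. GGACT, the sequence in which m6A is most often found, was counted on the mRNA strand. Grin2a held 22 copies, Grin2b 16, Grin3a 11, Gria1 8, Gria2 7, Gria4 6, Grin2d 5, and Gria3 and Grin1 3 each, with a median of 3 over all genes. Per length the members were ordinary, from 0.578 copies per kb in Gria3 to 1.50 in Grin2a around a median of 1.04.

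Within 500 bases on either side of the end of the stop codon, 5 of the 9 members held GGACT, and 68.0% of 9078 genes with a full window did. The copy nearest the stop codon in each of the 5 is shown because this is where the mark is most common. No methylation was measured in these libraries, so a match is a stretch of letters and not a methylated site. Capitals mark GGACT, and the sequences run 5′ to 3′ along the mRNA.
Gria1: tggtcagccaGGACTtccccaagtc
Gria3: gtggagccaaGGACTccgggagtaa
Grin2b: aaacaaggccGGACTtccgggccct
Grin2d: gagccagaggGGACTcggtcgccca
Grin3a: aggacgaaccGGACTtgtgaatcct
The Gria1 sequence lies at chr11:57327558-57327582 on the plus strand, in coding sequence, with its motif 79 bases before the end of the stop codon. The Gria3 sequence, at chrX:41669590-41669614 on the plus strand, is coding and its motif starts 262 bases before that point. For Grin2b the place is chr6:135732282-135732306 on the minus strand, coding, 199 bases before it. For Grin2d it is chr7:45832583-45832607 on the minus strand, in the 3′ UTR, 182 bases after it. The Grin3a motif starts 17 bases before it, in coding sequence at chr4:49665228-49665252 on the minus strand. Gria2, Gria4, Grin1 and Grin2a held no copy in this window.

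Levels of the members in Input were compared per kb of exonic length. Gria1 was first at 93.7 ± 22.9 CPM per kb (SD, n = 3), followed by Grin2b at 45.2 ± 8.30, Grin1 at 23.6 ± 7.34 and Gria2 at 23.2 ± 2.90. Grin2a stood at 10.9 ± 4.15, Gria4 at 7.95 ± 2.64 and Gria3 at 4.22 ± 1.096, and Grin2d at 2.88 ± 1.30 and Grin3a at 2.22 ± 0.29 came last. Among neighbours in this order the replicates overlapped for Grin1 and Gria2, for Grin2a and Gria4, for Gria3 and Grin2d, and for Grin2d and Grin3a. In the YTHDF1 RIP the first place passed to Grin2b, with 254 ± 107 CPM per kb against 171.5 ± 52.6 for Gria1, though their replicates overlapped. In bulk RNA a change in the share of neurons and a change in RNA per neuron cannot be told apart.

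**Figure D1:**
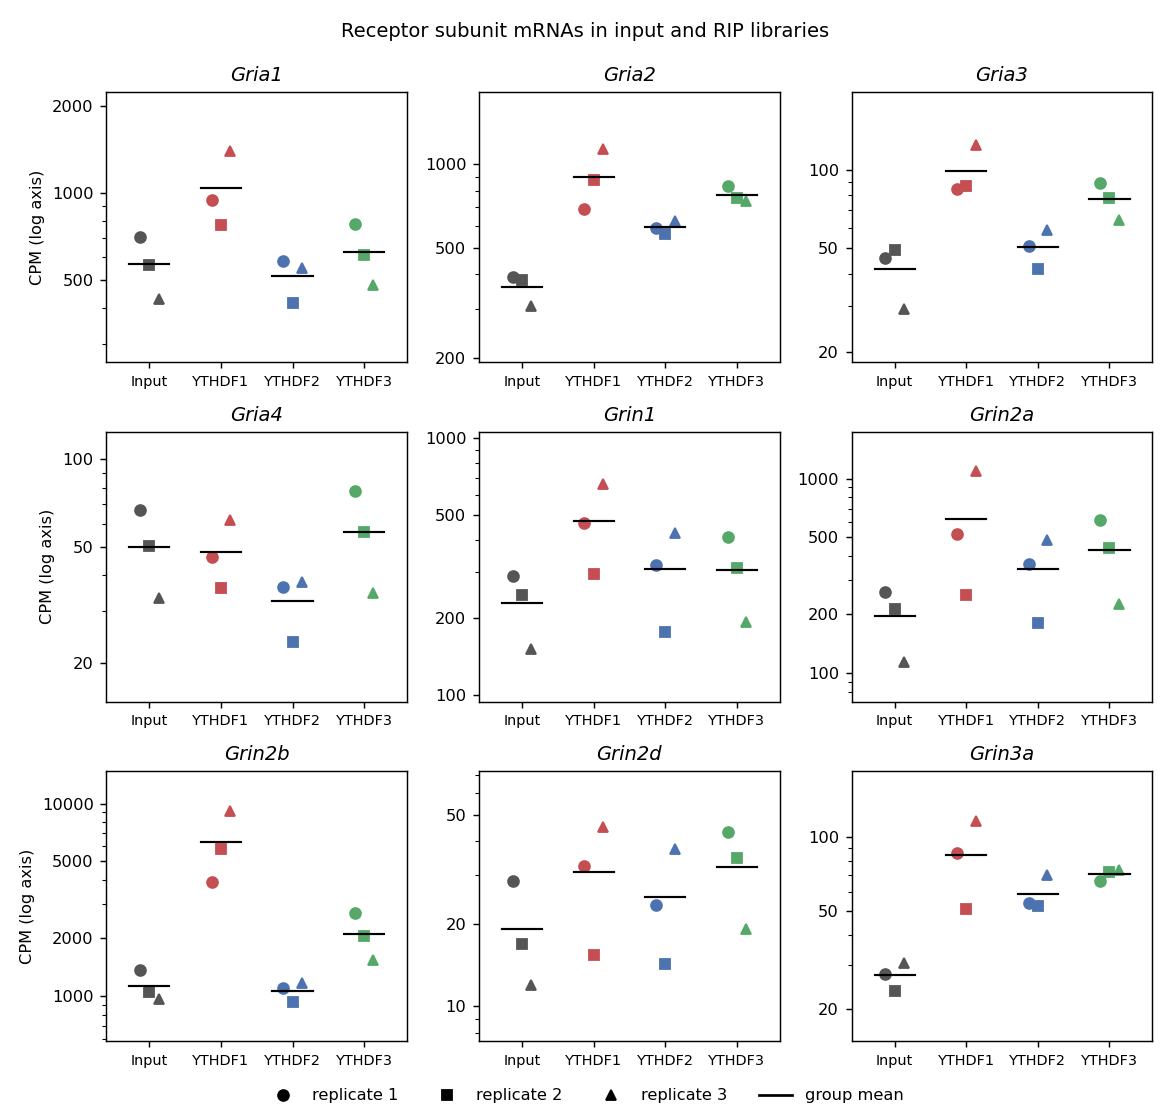
CPM of each receptor subunit mRNA in the 12 libraries (log axis, 1 panel per gene, replicates by symbol, bars at the group means). All 3 YTHDF1 RIP libraries lie above all 3 Input libraries for 6 of the 9 genes, and Grin2b spans 3920 to 9192 CPM in the YTHDF1 RIP against 962 to 1355 CPM in Input.

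To ask which receptor mRNAs each reader recovered, every RIP was compared with Input. A gene was called enriched or depleted where its log2 fold change was 0.32 or more in size with an adjusted p of 0.05 or less in edgeR's quasi-likelihood test with Benjamini-Hochberg adjustment over all genes tested. In the YTHDF1 RIP 7 of the 9 members were enriched, all except Gria4 and Grin2d, where 27.5% of all genes tested were. In the YTHDF2 RIP 2 members, Gria2 and Grin3a, were enriched (16.1% of all genes), and in the YTHDF3 RIP 4 members, Gria2, Gria3, Grin2b and Grin3a (16.7% of all genes). No member was depleted in any RIP, where 26.1%, 19.3% and 23.2% of all genes were, and with both edgeR and DESeq2 0 members were below Input at an unadjusted p under 0.05. Gria2 and Grin3a were the members enriched in all 3 RIPs. Of the 5 members with GGACT near the stop codon 4, 1 and 3 were enriched with YTHDF1, YTHDF2 and YTHDF3, and of the 4 without it 3, 1 and 1. The median log2 fold change of the members was 1.247, 0.39 and 0.89 for YTHDF1, YTHDF2 and YTHDF3, against 0.023, 0.021 and 0.050 over all genes.

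Long genes as a class were enriched more often, so a nearer background is the 4523 protein-coding genes with at least the 6043 exonic bases of Gria1. Of these, 50% were enriched with YTHDF1, 28.1% with YTHDF2 and 35.7% with YTHDF3, with median log2 fold changes of 0.77, 0.37 and 0.54. Against this background the 2 of 9 members with YTHDF2 and the 4 of 9 with YTHDF3 are near the share of long genes, and the 7 of 9 with YTHDF1 are above it, without a test. The background is not matched in length, as it starts at the shortest member and the others reach up to 24842 bases. After removal of a trend of the log2 difference from Input on exonic length, described below, 1 member was enriched with YTHDF1, where 22.6% of all genes were. The replicates of RIP and Input did not overlap, with RIP higher, for 6, 2 and 4 members, where 28%, 25.5% and 26.8% of all genes had such separation.

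**Figure D2:**
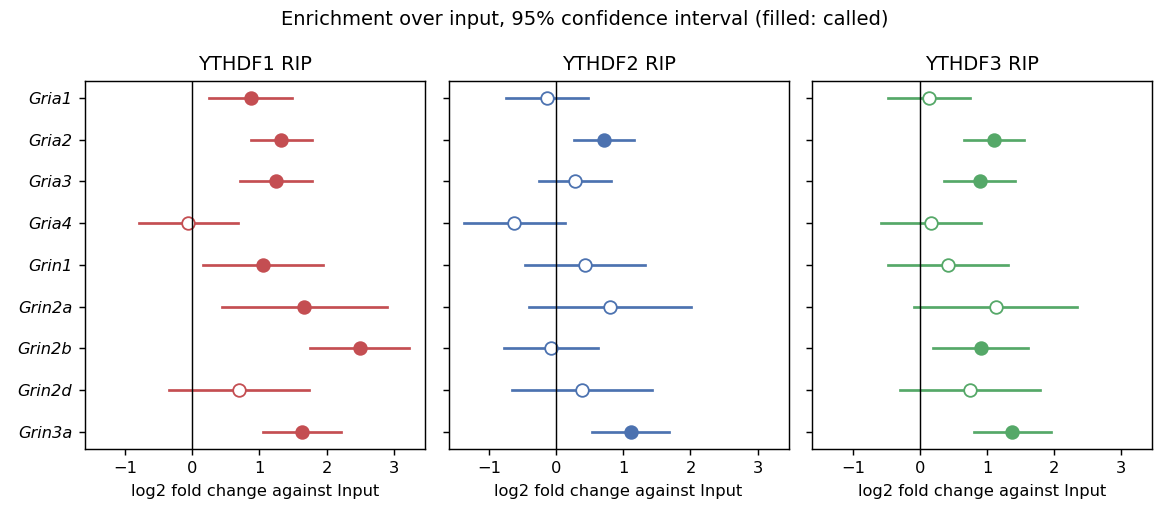
Log2 fold change of each RIP against Input for the 9 receptor mRNAs, with 95% confidence intervals from edgeR (filled circles are called enriched). Grin2b reaches 2.49 with YTHDF1, -0.08 with YTHDF2 and 0.90 with YTHDF3, whereas Grin3a and Gria2 are filled in all 3 panels.

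Gria1 encodes the GluA1 subunit, which is added to synapses during potentiation. The Input libraries held 706, 565 and 429 CPM, those of YTHDF1 946, 773 and 1389, those of YTHDF2 580, 417 and 552 and those of YTHDF3 778, 610 and 481. Only the YTHDF1 libraries were all above Input. The log2 fold change was 0.87 ± 0.28 (SE, adjusted p = 0.0217, edgeR) with YTHDF1. It was -0.13, with a 95% interval of -0.75 to 0.48, with YTHDF2 and 0.14, from -0.48 to 0.75, with YTHDF3.

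Gria2 encodes GluA2, the subunit that makes the channel nearly impermeable to calcium once its transcript is edited. Its libraries stood at 391, 381 and 309 CPM in Input, 689, 879 and 1140 with YTHDF1, 590, 562 and 626 with YTHDF2 and 832, 753 and 738 with YTHDF3. Every RIP library exceeded every Input library. Enrichment was 1.33 ± 0.21 on the log2 scale with YTHDF1 (adjusted p = 0.000302, edgeR), 0.72 ± 0.20 with YTHDF2 (adjusted p = 0.0184) and 1.105 ± 0.21 with YTHDF3 (adjusted p = 0.00143). The YTHDF2 call rested on single libraries. Without Input replicate 3 it was 0.59 (adjusted p = 0.0766), and without YTHDF2 RIP replicate 3 it was 0.68 (adjusted p = 0.0545). Gria2 shares its strand and part of its span with the small gene Gm25749, and reads over both were counted for both. Gm25749 had 6411 counts in all against 140999 for Gria2. Gria3 overlapped Gm22413 in the same way (258 counts against 14487), and Gria4 overlapped Gm23811 (131 against 9844).

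Gria3, on the X chromosome, encodes GluA3 and was less abundant, at 46.0, 49.5 and 29.3 CPM in Input. It reached 84.9, 87.0 and 124 CPM with YTHDF1, 51.3, 41.6 and 58.9 with YTHDF2 and 89.0, 78.0 and 64.2 with YTHDF3. The YTHDF1 and YTHDF3 libraries were all above Input, while those of YTHDF2 overlapped it. The log2 fold changes were 1.247 ± 0.24 with YTHDF1 (adjusted p = 0.0013, edgeR) and 0.89 ± 0.24 with YTHDF3 (adjusted p = 0.0125), and with YTHDF2 0.28, from -0.25 to 0.81.

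Gria4, which encodes GluA4, was the AMPA receptor subunit called in no RIP. Input held 66.7, 50.2 and 33.5 CPM, YTHDF1 libraries 46.1, 36.2 and 62.1, YTHDF2 libraries 36.4, 23.5 and 37.8, and YTHDF3 libraries 77.7, 56.4 and 34.7. All groups overlapped Input. The log2 fold changes were -0.06 (95% interval -0.80 to 0.68), -0.62 (-1.37 to 0.13) and 0.17 (-0.57 to 0.90).

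Grin1 encodes GluN1, present in every NMDA receptor. Its values were 290, 245 and 151 CPM in Input, 467, 295 and 662 with YTHDF1, 322, 175 and 428 with YTHDF2 and 412, 311 and 193 with YTHDF3. The lowest YTHDF1 library was just above the highest Input library. The enrichment of 1.05 ± 0.41 with YTHDF1 was near the threshold (adjusted p = 0.0471, edgeR). Without YTHDF1 RIP replicate 3, the deepest library, it was 0.65 (adjusted p = 0.238). It also lost the call without YTHDF1 RIP replicate 1 (1.07, adjusted p = 0.0803), Input replicate 2 (1.11, adjusted p = 0.0889) or Input replicate 3 (0.73, adjusted p = 0.198). With YTHDF2 and YTHDF3 the log2 fold changes were 0.43 (-0.46 to 1.32) and 0.42 (-0.47 to 1.30).

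Grin2a and Grin2b encode GluN2A and GluN2B, the main partners of GluN1 in forebrain, with GluN2B prevailing early and GluN2A rising as neurons mature. Grin2a was at 259, 212 and 113 CPM in Input and at 519.5, 252 and 1088 CPM with YTHDF1. It was at 362, 179 and 480 CPM with YTHDF2 and at 615, 440 and 225 CPM with YTHDF3. In each RIP at least 1 library fell within the Input range. The log2 fold change with YTHDF1 was 1.67 ± 0.56 (adjusted p = 0.0258, edgeR), and it was 0.90 (adjusted p = 0.182) without YTHDF1 RIP replicate 3, 1.30 (adjusted p = 0.107) without Input replicate 3 and 1.73 (adjusted p = 0.0598) without Input replicate 2. Gria1 lost its YTHDF1 call without the same libraries, with log2 fold changes of 0.51, 0.61 and 0.87 (adjusted p = 0.154, 0.130 and 0.0587). With YTHDF2 and YTHDF3 the log2 fold changes of Grin2a were 0.80 (-0.40 to 2.01) and 1.13 (-0.08 to 2.34), neither of them called.

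Grin2b was the member with the widest contrast between readers. Its CPM was 1355, 1050 and 962 in Input and 3920, 5819 and 9192 with YTHDF1. It was 1096, 929 and 1167 with YTHDF2 and 2710, 2047 and 1541 with YTHDF3. All YTHDF1 libraries were above all others, the YTHDF3 libraries lay between, and the YTHDF2 libraries overlapped Input. Enrichment with YTHDF1 was 2.49 ± 0.34 on the log2 scale, or 5.62-fold (adjusted p = 0.00012, edgeR), higher than for 96.5% of all genes tested. It stayed between 2.01 and 2.74 when any library of the 2 groups was left out. Enrichment with YTHDF3 was 0.90 ± 0.32 (adjusted p = 0.0432) and rested on single libraries. It was 0.68 without YTHDF3 RIP replicate 1, 0.92 without YTHDF3 RIP replicate 2, 0.86 without Input replicate 2 and 0.84 without Input replicate 3 (adjusted p = 0.158, 0.0911, 0.119 and 0.105). With YTHDF2 it was -0.08, with a 95% interval of -0.78 to 0.62.

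Grin2d, which encodes GluN2D, a subunit best known from interneurons and early development, was low in all groups. It was at 28.7, 16.9 and 11.9 CPM in Input, 32.6, 15.4 and 45.0 with YTHDF1, 23.4, 14.2 and 37.5 with YTHDF2 and 43.1, 34.7 and 19.1 with YTHDF3. All groups overlapped. The log2 fold changes were 0.69 (-0.35 to 1.74), 0.39 (-0.66 to 1.43) and 0.75 (-0.29 to 1.79).

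Grin3a encodes GluN3A, which lowers the calcium permeability of NMDA receptors and is most abundant in young neurons. Input held 27.7, 23.5 and 30.7 CPM, YTHDF1 libraries 86.4, 51.1 and 116, YTHDF2 libraries 53.8, 52.5 and 70.4, and YTHDF3 libraries 66.2, 72.1 and 73.7. Every RIP library was above every Input library, as for Gria2. The log2 fold changes were 1.63 ± 0.26 with YTHDF1 (adjusted p = 0.000378, edgeR), 1.11 ± 0.26 with YTHDF2 (adjusted p = 0.0071) and 1.37 ± 0.26 with YTHDF3 (adjusted p = 0.0016), the last higher than for 98.1% of all genes. All 3 calls held when any library of the compared groups was left out.

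Although the methods give all libraries of a replicate 1 lysate, the libraries did not all deviate from their group means by number. Same-numbered libraries of Input and the YTHDF3 RIP correlated in these deviations at 0.69 to 0.90 across genes. Those of Input correlated with the YTHDF1 RIP at -0.42 to 0.092 and with the YTHDF2 RIP at -0.43 to 0.22, while Input replicate 3 reached 0.52 with YTHDF1 RIP replicate 2 and 0.68 with YTHDF2 RIP replicate 2. Against Input, the numbers of the YTHDF1 and YTHDF2 libraries thus did not follow the stated sharing of lysates, and the reason was not tested. Same-numbered libraries of the YTHDF1 and YTHDF2 RIPs correlated with each other at 0.089, 0.63 and 0.48, and differently numbered ones at 0.17 at most. Input and the YTHDF3 RIP were the only pair of groups with all 3 correlations above 0.1. Within replicates, the YTHDF3 RIP exceeded Input by 1.09, 0.98 and 1.26 on the log2 scale for Gria2, by 1.246, 1.05 and 0.98 for Grin2a and by 1.00, 0.96 and 0.68 for Grin2b. The differences for Gria1 were 0.14, 0.11 and 0.16. With the number as a block in all 12 libraries, 6, 2 and 3 members were enriched with YTHDF1, YTHDF2 and YTHDF3, beside 26.9%, 15.7% and 16.5% of all genes. Grin1 was then not called with YTHDF1 (1.02, adjusted p = 0.0627, edgeR), nor Grin2b with YTHDF3 (0.91, adjusted p = 0.0667). In blocked fits of a RIP and Input alone the counts moved further. With YTHDF1 they left 2 members, Grin2b at 2.32 (adjusted p = 0.0308) and Grin3a at 1.46 (adjusted p = 0.0162), beside 14.2% of all genes, and with YTHDF2 Grin3a alone at 1.104 (adjusted p = 0.0113), beside 11.9%. With YTHDF3 7 members were enriched, but so were 36.5% of all genes, against 16.7% without the block. The 3 members gained were Grin1 at 0.46 (adjusted p = 0.000124), Grin2a at 1.15 (adjusted p = 2.5e-10) and Grin2d at 0.82 (adjusted p = 2.4e-06).

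Astrocyte markers moved with some libraries. Input replicate 3 had the highest sum, 2421 CPM, and the lowest Input value of 8 members, all except Grin3a. A fit without the library with the highest astrocyte marker sum in each group, chosen after the values were seen, called the same 7 members with YTHDF1. It called Grin3a alone with YTHDF2 (1.27, adjusted p = 0.0068), and Gria2 then stood at 0.65 (adjusted p = 0.0995). With YTHDF3 it called 4, with Grin2a in (1.17, adjusted p = 0.0445) and Grin2b out (0.99, adjusted p = 0.0985). Over all genes this fit called 4384, 2232 and 2427 enriched with YTHDF1, YTHDF2 and YTHDF3, against 4624, 2704 and 2812 with all libraries.

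Longer members had higher fold changes. Across the 9 genes the rank correlation of exonic length with the log2 fold change was 0.93 for YTHDF1, 0.53 for YTHDF2 and 0.83 for YTHDF3, and over all 16820 genes it was 0.46, 0.38 and 0.53. The members share the same libraries, and this is a description over genes, with no p. The 3′ UTR length of the members had rank correlations of 0.87, 0.25 and 0.62, and their number of GGACT copies 0.66, 0.25 and 0.52, whereas copies per kb gave -0.05, 0.32 and 0.13. Over 13275 genes the number of copies gave 0.45, 0.37 and 0.48 and copies per kb 0.011, 0.098 and 0.049. A smooth trend on exonic length was then removed from the log2 difference between each library and the Input mean. This takes out the part of the enrichment over Input that goes with length. Grin2b remained the only member enriched with YTHDF1, at 0.71 (adjusted p = 0.0252, edgeR), where 22.6% of all genes were. Grin3a (0.57), Gria1 (0.48) and Gria3 (0.42) kept positive values that did not pass, while Gria2 was at 0.027 and Grin2a at 0.21. With YTHDF2 0 members were enriched by edgeR (1 above Input at an unadjusted p under 0.05) and Grin2b was depleted, at -0.66 (adjusted p = 0.0497), where 12.5% and 17.4% of all genes were. With YTHDF3 Grin3a alone was enriched, at 0.78 (adjusted p = 0.0317, 16.8% of all genes), and Grin2b stood at 0.049. The Grin2b transcript was longer than 99.9% of those of the 13275 genes. With the span used, the trend at its 24842 exonic bases was drawn mostly from shorter genes.

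**Figure D3:**
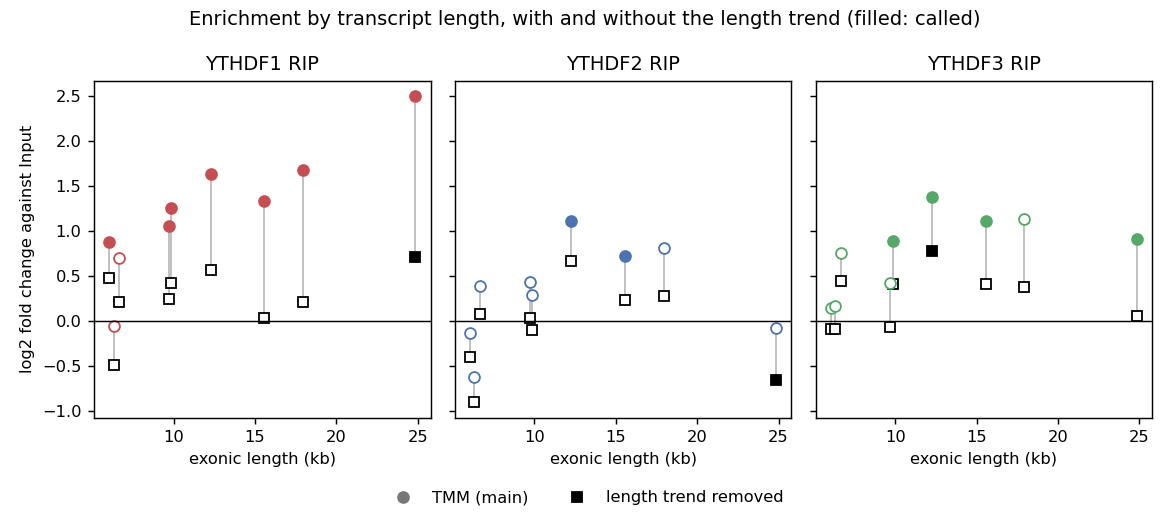
Log2 fold change against Input by exonic length for the 9 receptor mRNAs, as tested (circles) and after removal of the length trend (squares), with filled symbols for called genes. Without the trend Grin2b (0.71) is the only filled square in the YTHDF1 panel, Grin2b (-0.66) in the YTHDF2 panel and Grin3a (0.78) in the YTHDF3 panel.

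The RIPs were then compared with each other, where a call took a 2-fold difference with an adjusted p of 0.05 or less. A single test of any difference among the 3 RIPs passed for Grin2b (adjusted p = 0.000421, edgeR), Gria3 (adjusted p = 0.0273) and Gria1 (adjusted p = 0.0343), where 32.8% of all genes passed. For the other members the adjusted p ranged from 0.0895 for Gria2 to 0.797 for Grin2d. Between YTHDF1 and YTHDF2, 2 members were called, both higher with YTHDF1, where 11.4% of all genes and 21% of the long protein-coding genes were. Grin2b differed by 2.57 ± 0.34 (adjusted p = 0.000261), and Gria1 by 1.01 ± 0.28 (adjusted p = 0.0212). The Gria1 difference sat on the 2-fold threshold and was 0.67 (adjusted p = 0.118) without YTHDF1 RIP replicate 3 and 0.99 (adjusted p = 0.0229) with DESeq2 size factors. In a blocked fit of these groups alone it was 0.93 (adjusted p = 0.0207). Gria3 differed by 0.96 ± 0.24 (adjusted p = 0.0121) and Gria2 by 0.61 ± 0.20 (adjusted p = 0.0465), both under 2-fold. For the remaining 5 members the interval of the difference included 0, and for Grin3a it ran from -0.04 to 1.08.

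Between YTHDF1 and YTHDF3, Grin2b was the member called, higher with YTHDF1 by 1.59 ± 0.33 (adjusted p = 0.0055, edgeR), where 11% of all genes and 14.7% of the long ones were. It was 1.06 (adjusted p = 0.0201) without YTHDF1 RIP replicate 3 and 0.66 (adjusted p = 0.0647) after removal of the length trend, and in a blocked fit of these groups alone it was 1.34 (adjusted p = 0.223). Gria1 differed by 0.73, from 0.12 to 1.35 (adjusted p = 0.0840), and Gria2 by 0.22, from -0.23 to 0.67. Between YTHDF2 and YTHDF3 no member was called, where 5.14% of all genes were. The unadjusted p was under 0.05 for Grin2b, Gria3 and Gria4, which were lower with YTHDF2 by 0.98, 0.61 and 0.79 (adjusted p = 0.0825, 0.143 and 0.176), and DESeq2 called Grin2b (-1.03, adjusted p = 0.0116). For Grin2b, Gria3 and Gria2 all YTHDF2 libraries were below all YTHDF3 libraries, as for 14.1% of all genes. Separation in either direction held for 36.1% of all genes.

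Ratios within a library do not depend on the scaling between libraries. Among length-scaled counts of the 4 AMPA receptor subunits, Gria2 made up 16.0%, 18.7% and 20.02% in Input and 20.4%, 28.4% and 22.5% with YTHDF1. With YTHDF2 it was 26.2%, 32.0% and 28.04%, and with YTHDF3 26.3%, 29.1% and 34.2%. All RIP libraries were above all Input libraries. Gria2 has 15548 exonic bases and Gria1 6043, and whether their lengths underlie the change in share was not tested. After removal of the length trend the log2 fold change with YTHDF1 was lower for Gria2 (0.027) than for Gria1 (0.48), while it was higher for Gria2 with YTHDF2 (0.23 and -0.40) and with YTHDF3 (0.41 and -0.096). The means were 18.2% ± 2.04 in Input and 23.8% ± 4.13, 28.7% ± 2.95 and 29.9% ± 3.98 in the RIPs (SD, n = 3, exact two-sided permutation test p = 0.1 for each, the smallest that 3 against 3 allows, and 0.18 adjusted over 9 ratio tests). The share of Gria1 was 72.4% ± 1.604 in Input, 69.0% ± 4.19 with YTHDF1, 63.6% ± 2.61 with YTHDF2 and 60.4% ± 3.02 with YTHDF3 (exact permutation p = 0.3, 0.1 and 0.1, adjusted 0.338, 0.18 and 0.18). The log2 ratio of Grin2a to Grin2b was -1.92, -1.84 and -2.61 in Input, -2.45, -4.06 and -2.61 with YTHDF1, -1.13, -1.90 and -0.81 with YTHDF2 and -1.67, -1.75 and -2.31 with YTHDF3. Every RIP overlapped Input, with exact permutation p = 0.3, 0.2 and 0.5 (adjusted 0.338, 0.3 and 0.5).

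**Figure D4:**
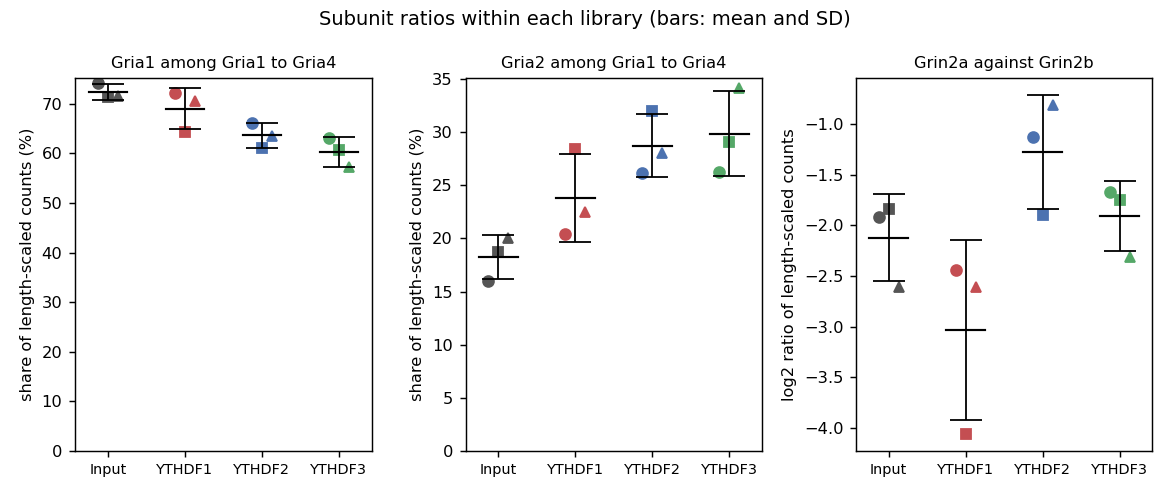
Share of Gria1 and Gria2 among length-scaled counts of the 4 AMPA receptor subunits, in percent, and log2 ratio of Grin2a to Grin2b, in each library (points, replicates by symbol) with group mean and SD (bars). The Gria2 share is 16.0% to 20.02% in Input and 20.4% to 34.2% in the RIP libraries.

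Across the 12 libraries the log2 CPM of the members rose and fell together to different degrees. The highest correlation was between Grin1 and Grin2a (Pearson r = 0.958) and the lowest between Gria4 and Grin3a (r = 0.0846). Among 9642 protein-coding genes with a mean of at least 100 normalized counts, the gene most like each member was Epb41l3 for Gria1 (r = 0.971), Smg1 for Gria2 (0.990), Man1a2 for Gria3 (0.985), Phyhipl for Gria4 (0.973), Dnm1 for Grin1 (0.989), Fam135b for Grin2a (0.991), Ttbk2 for Grin2b (0.989), Epha10 for Grin2d (0.968) and Cant1 for Grin3a (0.987). These are descriptions over libraries that share their groups and depth, and carry no p.

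Genes for the partners of these receptors were described by list, beside 27.5%, 16.1% and 16.7% of all genes enriched and 26.1%, 19.3% and 23.2% depleted with YTHDF1, YTHDF2 and YTHDF3. Of 13 genes for AMPA receptor assembly and trafficking, 6 were enriched and 2 depleted with YTHDF1, 2 and 4 with YTHDF2, and 4 and 2 with YTHDF3, with median log2 fold changes of 0.65, -0.18 and 0.42. The highest called values with YTHDF1 were those of Akap5, the kinase anchor of the postsynaptic density (1.89 ± 0.49, adjusted p = 0.00726, edgeR), and Grip2, a scaffold that binds GluA2 (1.27 ± 0.41, adjusted p = 0.0224). With YTHDF2 they were those of Pick1 (0.89 ± 0.17) and Gripap1 (0.89 ± 0.17), which act in the recycling of GluA2, and with YTHDF3 those of Grip2 (1.45 ± 0.41) and Epb41l1 (1.18 ± 0.24), which links receptors to actin. The neuronal endosomal proteins Nsg1 and Nsg2 were depleted in all 3 RIPs, Nsg2 at -1.66 ± 0.21, -1.08 ± 0.21 and -1.34 ± 0.21 and Nsg1 at -0.67 ± 0.23, -1.44 ± 0.24 and -1.21 ± 0.24. Frrs1l, needed to assemble AMPA receptors, was depleted with YTHDF2 (-1.11 ± 0.29). Counts of this list moved with single libraries. With YTHDF3 2 were enriched without Input replicate 2, Input replicate 3 or YTHDF3 RIP replicate 1. With YTHDF1 1 was depleted without Input replicate 1 or YTHDF1 RIP replicate 1, and with YTHDF2 2 were without Input replicate 1, YTHDF2 RIP replicate 2 or YTHDF2 RIP replicate 3.

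Of the 12 auxiliary subunits of AMPA receptors, 0 were enriched with YTHDF1 or YTHDF2 by edgeR (1 and 0 above Input at an unadjusted p under 0.05, and 1 and 0 called by DESeq2), and 1 was with YTHDF3, Shisa6 (0.96 ± 0.31, adjusted p = 0.0288). Cnih2, a cornichon that slows channel closing, fell from 183 ± 18.9 CPM in Input to 28.9 ± 8.08, 32.1 ± 6.64 and 21.3 ± 7.25 CPM in the RIPs, log2 fold changes of -2.66, -2.51 and -3.11. Cacng7 (-1.43 ± 0.25) and Shisa9 (-0.96 ± 0.22) were depleted with YTHDF2. The median log2 fold changes of this list were 0.05, -0.45 and 0.49. Shisa6 was not called without Input replicate 2, YTHDF3 RIP replicate 1 or YTHDF3 RIP replicate 2, and 2 genes of the list were enriched with YTHDF3 without Input replicate 1 or 3. With YTHDF1 1 was enriched without YTHDF1 RIP replicate 1, and 3 were depleted without Input replicate 3 or YTHDF1 RIP replicate 3, against Cnih2 alone with all libraries. With the length trend removed, 22.6%, 12.5% and 16.8% of all genes were enriched with YTHDF1, YTHDF2 and YTHDF3. Beside these shares, 4 of the 12 auxiliary subunits were enriched with YTHDF3. The 13 assembly and trafficking genes then had 2 enriched with YTHDF1, 2 with YTHDF2 and 0 with YTHDF3 by edgeR (2 above Input at an unadjusted p under 0.05).

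Of 12 partners of NMDA receptors, 5 were enriched and 3 depleted with YTHDF1, 2 and 2 with YTHDF2 and 3 and 3 with YTHDF3, with medians of 0.36, -0.30 and 0.16. Lin7c, of the complex that carries NMDA receptors along dendrites, was at 1.90 ± 0.60 with YTHDF1 (adjusted p = 0.0193, edgeR), with a spread of 551 ± 606 CPM over the 3 libraries, and Neto1, an auxiliary protein, at 1.69 ± 0.55 (adjusted p = 0.0210). The kinases Src (0.53 ± 0.15) and Fyn (0.46 ± 0.15) were enriched with YTHDF2, though leaving out any 1 library of the YTHDF2 RIP or Input left at most 1 gene of the list enriched. Enriched with YTHDF3 were Ephb2 (0.91 ± 0.28) and Src (0.58 ± 0.15). The enriched count with YTHDF1 was 3 without any 1 of the Input libraries or without YTHDF1 RIP replicate 3, and the depleted count with YTHDF3 was 1 without YTHDF3 RIP replicate 3. Srr, which makes the co-agonist D-serine, was depleted in all 3 RIPs (-1.60 ± 0.28, -2.37 ± 0.29 and -1.01 ± 0.28), as was Lin7a (-1.44 ± 0.43, -2.71 ± 0.46 and -1.80 ± 0.43), and Lin7b with YTHDF1 and YTHDF3 (-1.37 ± 0.33 and -1.06 ± 0.33). With the length trend removed, 1, 0 and 2 genes of this list were enriched with YTHDF1, YTHDF2 and YTHDF3 by edgeR, beside 22.6%, 12.5% and 16.8% of all genes. With YTHDF2, 2 were above Input at an unadjusted p under 0.05. Depleted were 3, 3 and 2, beside 4119, 2931 and 2675 of all genes.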

How the data were processed

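Per the labels and the study's methods, stranded libraries of total RNA carried molecular identifiers, and the authors removed duplicates with UMI-tools 1.1.1, trimmed with cutadapt 3.4 and aligned to GRCm38 (mm10) with STAR 2.7.7a. They deposited raw counts per gene (featureCounts 2.0.1, Ensembl 97, strand setting 2). Per the file headers, reads over several genes and all reported alignments were counted, so counts can be shared between overlapping genes. The authors' DESeq2 tables of their own comparisons hold mean counts, log2 fold changes and p-values, and served only to pair symbols with identifiers.

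From the counts, TMM scaling and 1 quasi-likelihood model of 4 groups over all 12 libraries were fitted with edgeR 4.0.16 in R 4.3.3, on genes with a mean median-ratio normalized count of at least 10. Intervals use the model's standard errors. The script was tested on simulated data. CPM per kb uses the exonic length in the count table. Alternatives were other scalings and filters, DESeq2 1.42.0, the replicate number as a block and the compared groups alone. Others were removal of a loess trend on length (span 0.3) and leaving out each library. The trend was that of each library's log2 CPM minus the Input mean on log2 exonic length. Per the study's methods the libraries of a replicate share a lysate, and the correlation of deviations from group means was checked for each pair of groups. Transcript features came from GENCODE M21, 1 Ensembl release older than the counts, with the longest coding sequence for each gene. No genome sequence or protein sequence was used.

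The members, lists and tests were chosen with earlier results of these data known. The text names the 9 members in every comparison, of each list at most 2 called genes in each direction for each RIP, and for each member the protein-coding gene with the highest correlation of log2 CPM. Shisa9, Lin7b, Nsg1, Frrs1l and Pdgfra are named as well where a count or value turns on them, and so are genes that overlap members on the same strand. Results for further family genes are not reported here.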

Additional observations from a re-analysis of the deposited data

Results flagged for a closer look

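Each RIP used its own antibody, so differences of reader and of antibody cannot be told apart. Between RIPs 3 differences of members were called, each in a direct test of 1 RIP against another. They were 2 of 9 members higher with YTHDF1 than with YTHDF2, beside 11.4% of all genes and 21% of protein-coding genes with at least 6043 exonic bases. The other was 1 of 9 higher with YTHDF1 than with YTHDF3, beside 11% and 14.7%. Grin2b was higher with YTHDF1 than with YTHDF2 by 2.57 on the log2 scale (adjusted p = 0.000261, edgeR), a difference of 1.37 to 2.82 under every alternative run and called under each. Grin2b was higher with YTHDF1 than with YTHDF3 by 1.59 (adjusted p = 0.0055), which ranged from 0.66 to 1.84 and lost its call under 6 of 18 alternatives. Gria1 was higher with YTHDF1 than with YTHDF2 by 1.01 (adjusted p = 0.0212), which ranged from 0.54 to 1.13 and lost its call under 11 of 18 alternatives.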

How the results depend on the processing

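The lowest count of a member in any library was 95, and no fit at matched depth was made. Leaving out 1 library in turn, the number of members called enriched was 4 to 7 with YTHDF1, 1 to 2 with YTHDF2 and 3 to 4 with YTHDF3. Over all genes the enriched then numbered 3662 to 4524, 1924 to 2172 and 1972 to 2406. Members higher in YTHDF1 than YTHDF2 numbered 1 to 3, beside 1532 to 2067 of all genes. In the following counts, brackets give all genes called the same way in the same fit. The YTHDF1 count was 6 with DESeq2 size factors (4464 genes) or a minimum mean count of 50 (3703), and 5 with TMM over protein-coding genes (3659). It was 4 with library size alone (3073) or the compared groups alone (3397), and 2 with the compared groups alone and the replicate block (2390). With the length trend removed it was 1, with or without the block (3666 and 3800). The YTHDF2 count was 1 with no filter (2037), the compared groups alone and the block (2000), and without the highest-astrocyte libraries (2232). It was also 1 with the length trend removed in the block fit (2060). With the length trend removed alone it was 0 (2099), and 1 member was depleted (2931). The YTHDF3 count was 7 with the compared groups alone and the replicate block (6144), where same-numbered libraries deviated together. It was 6 with no filter (3248), 5 with library size alone (4821) and 3 with the block in all 12 libraries (2783). With the length trend removed it was 1, with or without the block (2802 and 2827). The study's methods give same replicates a shared lysate, which the deviations of the YTHDF1 and YTHDF2 libraries did not follow by number against Input. The replicate block took the YTHDF1 count from 7 to 6 in all 12 libraries (4527 genes).

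Members higher in YTHDF1 than in YTHDF2 numbered 3 with no filter and 1 with DESeq2, DESeq2 size factors, library size alone, TMM over protein-coding genes, a minimum mean count of 50, the compared groups alone with or without the block, or the length trend removed with or without the block. Members higher in YTHDF1 than in YTHDF3 numbered 0 with library size alone, the compared groups alone with or without the block, the length trend removed with or without the block, and without the highest-astrocyte libraries. Members lower in YTHDF2 than in YTHDF3 numbered 1 with DESeq2 (348) or the compared groups alone (428) and 2 with library size alone (718) or no filter (769). For YTHDF1 over YTHDF2, all genes called numbered 2402 with no filter and 1063 to 1955 in the fits with 1 member. For YTHDF1 over YTHDF3 they numbered 328 to 1274 in the fits with 0 members.

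Over all genes, library size alone moved the median log2 difference from Input to -0.38, 0.089 and 0.38 for YTHDF1, YTHDF2 and YTHDF3, and the genes called with YTHDF1 from 4624 enriched and 4386 depleted to 3073 and 6139. TMM over protein-coding genes moved that median to -0.22 for YTHDF1, with 3659 enriched and 5450 depleted. With raw counts instead of length-scaled ones the share of Gria2 in the YTHDF2 RIP exceeded Input by 14.2 percentage points (10.5 as reported) and that of Gria1 fell by 12.2 (8.81). Without 1 library the difference in log2 Grin2a to Grin2b between the YTHDF3 RIP and Input ranged from -0.032 to 0.41.

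Directions turned for differences near 0. Grin1 between YTHDF2 and YTHDF3 (0.015) became -0.031 with DESeq2 and with its size factors, -0.044 with TMM over protein-coding genes, -0.091 with the compared groups alone, -0.14 with their block, -0.24 with library size alone, -0.21 with no filter and -0.021 with the block. Library size alone turned Grin2d between YTHDF1 and YTHDF2 (-0.12), and Grin1, Gria3, Gria2, Grin3a and Grin2a between YTHDF1 and YTHDF3 (-0.059, -0.37, -0.52, -0.47 and -0.16). The compared groups alone with the block turned Gria2 and Grin3a there (-0.0036 and -0.010). Removal of the length trend turned Gria3 with YTHDF2 (-0.10), Grin1, Gria4 and Gria1 with YTHDF3 (-0.064, -0.096 and -0.096), Gria2, Grin3a and Grin2a between YTHDF1 and YTHDF2 (-0.21, -0.094 and -0.064) and between YTHDF1 and YTHDF3 (-0.38, -0.21 and -0.17), and with the block these were -0.097, then -0.072, -0.098 and -0.093, then -0.21, -0.13 and -0.087, then -0.38, -0.25 and -0.24. Leaving out 1 library gave against Input -0.33 to 0.055 for Gria1, -0.21 to 0.081 for Grin2b and -0.029 to 0.80 for Grin2d with YTHDF2, -0.38 to 0.20 for Gria4 with YTHDF1, and -0.055 to 0.33 for Gria1 and -0.14 to 0.43 for Gria4 with YTHDF3. Between RIPs it gave -0.13 to 0.72 for Grin2d (YTHDF1 and YTHDF2), -0.14 to 0.38 for Gria2, -0.59 to 0.081 for Gria4, -0.27 to 0.90 for Grin2a, -0.56 to 0.21 for Grin2d and -0.18 to 0.39 for Grin3a (YTHDF1 and YTHDF3), and -0.30 to 0.30 for Grin1 and -0.66 to 0.036 for Grin2a (YTHDF2 and YTHDF3). The cause of these changes was not tested.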
